A study of Mus musculus with 6 samples.

Results

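The enzymes that build and break down glycogen were followed in mouse hearts, isoform by isoform, as the 7 genes Gys1, Gys2, Pygl, Pygm, Pygb, Gbe1 and Ugp2. They are 7 of the 27745 gene names on the array, and were found by taking every probe, other than controls, that carries one of these names. This gave 10 probes of 41174, of which 9 were among the 20000 brightest probes that were tested. The samples were whole hearts of male mice, 12 weeks old: 3 wild-type (WT) hearts and 3 hearts of TG-PKR1 mice, which carry the prokineticin receptor PKR1 as a transgene driven by the cardiomyocyte promoter of alpha myosin heavy chain. The study's methods give a C57BL6/J background for its mice, and no drug or diet is given for these hearts. Each heart was hybridized to 1 array in a single colour (Cy3). The question addressed is which isoforms differ in transcript level between the genotypes.

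Glycogen is the branched store of glucose of animal cells. UDP-glucose, made by the enzyme of Ugp2, is added to the growing chains by glycogen synthase, and the enzyme of Gbe1 introduces the branches. Glycogen phosphorylase takes glucose off again as glucose 1-phosphate. Synthase and phosphorylase each come as isoforms from separate genes: Gys1 is the muscle and general synthase, Gys2 the liver synthase, which fat cells also make, Pygm the muscle phosphorylase, Pygl the liver phosphorylase, which is found in fat and other tissues as well, and Pygb the brain phosphorylase, which the heart also makes.

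The arrays differed more in brightness than in profile. The probes well above background, by the test of the scanner software, numbered 19650 to 24923 per array, and the 75th percentile of the signal was 2.08 to 14.1 times the local background. WT replicate 1 and TG replicates 2 and 3 had been scanned with an extended range and the other 3 hearts in a single scan, so each scan mode held both genotypes. Of the 5 slides, 1 held 2 hearts, namely WT replicate 2 and TG replicate 1. The only probe of Prokr1, the gene of PKR1, was above background on 0 of 6 arrays, so the genotype was not checked on the arrays. Myh6 and Tnni3, which define heart muscle, were at mean log2 signals of 16.97 and 16.84 in WT hearts and 17.13 and 16.90 in TG hearts.

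The phosphorylase genes illustrate how far the isoforms are separate genes. The 250 bases upstream of the start of Pygl, Pygm and Pygb are given here from RefSeq (GRCm38.p6), 5′ to 3′ on the strand of the gene, because the members of this trio parted in the comparison that follows. Capitals mark, on either strand, the nuclear receptor half-site AGGTCA, the box named CCAAT, the motif of the GC box, GGGCGG, and the motif of the TATA box, TATAAA.
Pygl (chr12:70227684-70227933, minus strand): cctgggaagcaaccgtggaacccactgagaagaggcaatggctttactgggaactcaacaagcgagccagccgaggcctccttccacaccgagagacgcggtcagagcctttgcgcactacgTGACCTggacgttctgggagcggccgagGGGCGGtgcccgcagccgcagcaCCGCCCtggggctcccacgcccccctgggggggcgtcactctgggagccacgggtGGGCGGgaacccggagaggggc
Pygm (chr19:6384158-6384407, plus strand): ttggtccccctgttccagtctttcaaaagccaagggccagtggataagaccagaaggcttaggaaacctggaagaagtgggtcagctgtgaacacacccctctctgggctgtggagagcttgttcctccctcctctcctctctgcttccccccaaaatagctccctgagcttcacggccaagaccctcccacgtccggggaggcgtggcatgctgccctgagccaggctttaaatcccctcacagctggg
Pygb (chr2:150786546-150786795, plus strand): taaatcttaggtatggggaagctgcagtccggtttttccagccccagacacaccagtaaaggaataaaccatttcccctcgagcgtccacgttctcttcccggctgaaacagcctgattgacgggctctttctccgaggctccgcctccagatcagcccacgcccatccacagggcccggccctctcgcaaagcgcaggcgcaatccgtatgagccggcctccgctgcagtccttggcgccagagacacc

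The stretch before Pygl held AGGTCA 1 time, written there as its reverse complement, and GGGCGG 3 times on either strand, with a GC content of 69.2% and 20 CpG pairs. The stretch before Pygm held none of the 4 motifs, with a GC content of 58.4% and 4 CpG pairs. That before Pygb held none of them either, with 60% GC and 17 CpG pairs. The motifs do not overlap one another in these letters. Over all 32851 upstream stretches in the table, 14% held AGGTCA on either strand, 33.8% CCAAT, 32.7% GGGCGG and 12.4% TATAAA, and the median GC content was 52.4%. These are matches of letters and say nothing of binding.

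The liver isoforms of both enzymes were lower in TG hearts. Gys2 was 5.99-fold lower (95% interval 3.68 to 9.75) and Pygl 4.74-fold lower (3.12 to 7.22), with 3 hearts per group, and both passed the limma test. The muscle and brain isoforms Gys1, Pygm and Pygb and the shared enzymes Gbe1 and Ugp2 did not pass it in either direction, and their hearts overlapped between the genotypes. All values are normalized log2 signals, in which 1 unit is a doubling. Signals of different probes cannot be set against each other as amounts of transcript. Each probe, each difference of probes within a heart and each summed signal is therefore compared only across hearts. Background was not subtracted, which can make differences of dim probes look smaller. With the background-subtracted processed signal at the 75th percentile, the difference of Gys2 was -3.74 log2 units, outside the interval of the fold given here (adjusted p = 0.05002, limma), and that of Pygl was -2.34. The median signal at the 75th percentile gave -2.62 for Gys2. Background correction by normexp with quantile normalization gave a smaller difference for Gys2, -2.10, against -2.44 with quantile normalization alone.

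Gys2, the synthase of liver, was measured by 1 probe at chr6:142379908-142379967 of mm8 (minus strand). Its log2 signal was 9.27, 9.57 and 9.31 in WT replicates 1 to 3 and 7.24, 7.15 and 6.02 in TG replicates 1 to 3. All 3 TG hearts lay below all 3 WT hearts, and TG replicate 3 was the lowest. The mean of the WT hearts was 9.38 ± 0.16 and that of the TG hearts 6.80 ± 0.68 (SD, n = 3 each). The difference of TG minus WT was -2.58 log2 units (SE 0.31, 95% interval -3.29 to -1.88, limma adjusted p = 0.0339). The probe was above background on 6 of 6 arrays.

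Pygl, the phosphorylase of liver, was measured by a probe at chr12:71109473-71109532 of mm8 (minus strand). Its log2 signal was 12.09, 11.86 and 11.71 in the WT hearts and 9.995, 9.91 and 9.01 in the TG hearts, in the order of the replicates. Again no TG heart reached a WT heart, and TG replicate 3 was the lowest. The means were 11.88 ± 0.19 in WT and 9.64 ± 0.55 in TG hearts (SD, n = 3 each). The difference was -2.25 log2 units (SE 0.27, 95% interval -2.85 to -1.64, limma adjusted p = 0.0339). A second Pygl probe, at chr12:71122900-71122959 and designed on another cDNA, was above background on 0 of 6 arrays, stood at 5.71 to 5.84 in all hearts and was not among the probes tested. It gives no second measure of Pygl.

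**Figure D1:**
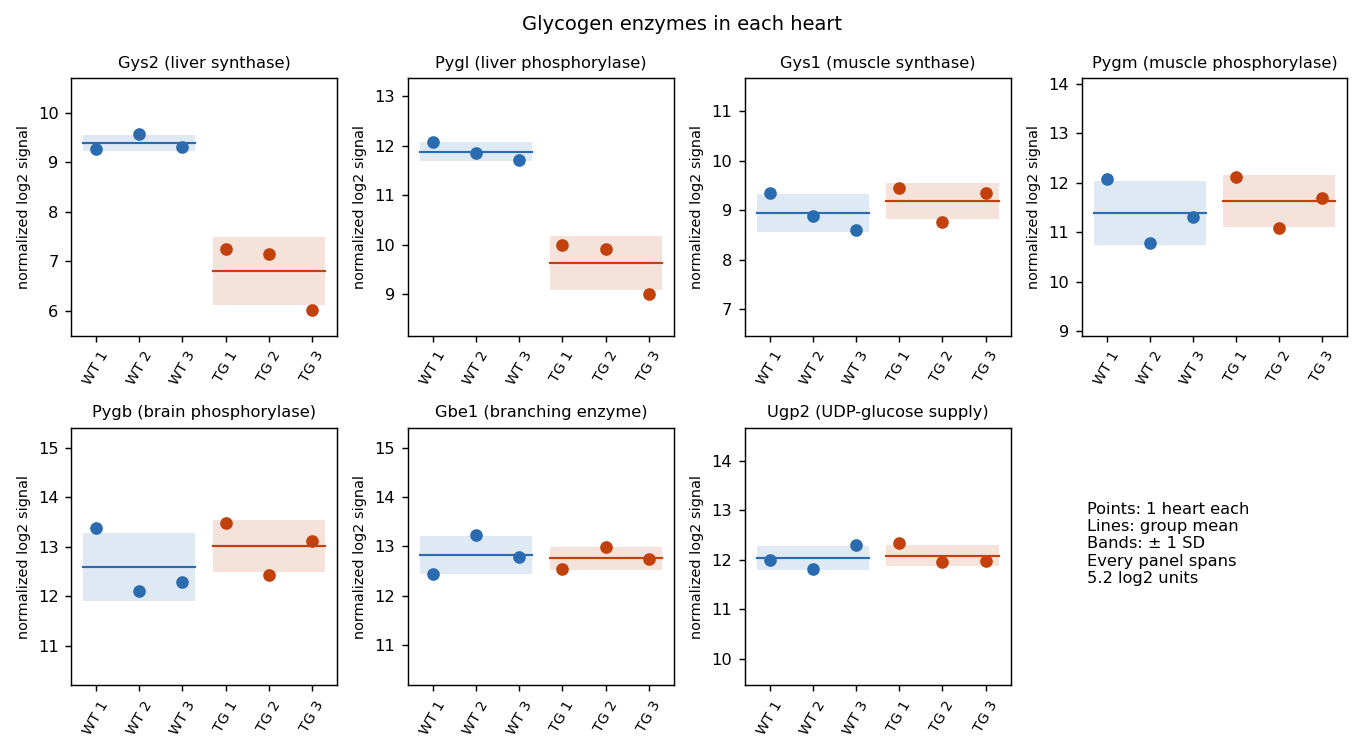
Normalized log2 signal (y axis) of the brightest probe of each gene in each heart (x axis), with WT in blue and TG in orange, the group mean as a line and ± 1 SD as a band. The TG hearts lie below the WT hearts for Gys2 (6.02 to 7.24 against 9.27 to 9.57) and Pygl (9.01 to 9.995 against 11.71 to 12.09), and the groups overlap for the other 5 genes.

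The calls of Gys2 and Pygl rest on few hearts. Without any 1 of the 6 hearts, the difference stayed between -2.80 and -2.19 for Gys2 and between -2.42 and -1.93 for Pygl, but the limma adjusted p rose to 0.0607 to 0.183 for Gys2 and 0.0607 to 0.183 for Pygl, so that leaving out any WT or TG replicate ended both calls. With scan mode as a block, the differences were -2.44 and -2.21 with a limma adjusted p of 0.189 for both. Within the scans of extended range, the difference was -2.69 for Gys2 and -2.63 for Pygl, and within the single scans it was -2.20 and -1.79. On the slide that carried both genotypes, TG replicate 1 was below WT replicate 2 by a difference of -2.33 for Gys2 and -1.86 for Pygl. A two-sided exact permutation test of either gene alone gave p = 0.1, the smallest that 3 hearts against 3 allow. The limma p-values rest on the spread between these 6 hearts together with the spread of all tested probes, which limma uses to steady that of each probe.

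Read against the whole array, 2 of the 9 tested member probes were called lower, where 0.095% of the 20000 tested probes were (19 probes, limma adjusted p under 0.05). None of the member probes was called higher, and 0% of all tested probes were: 0 by limma after adjustment, 0 by SAM, and 0.715% by limma at an unadjusted p under 0.05, with none of the members among those. At an unadjusted p under 0.05, 1.66% of all probes were lower in TG hearts, and of the members again only Gys2 and Pygl were. By SAM, the test named in the study's methods, Gys2 and Pygl were also called lower, as were 0.281% of the 19955 probes measured on all 6 arrays. In 2.73% of those probes all TG hearts lay below all WT hearts, and in 2.68% all lay above. Among the 20000 tested probes Gys2 ranked 13 and Pygl 11 by p. The median difference over all tested probes was 0.03 log2 units, and 5% of them lay below -0.27 and 5% above 0.31.

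Gys1, the synthase of muscle and most other tissues, did not differ beyond the spread of the hearts. Its probe, at chr7:45323618-45323677 (plus strand), read 9.35, 8.87 and 8.59 in WT and 9.45, 8.77 and 9.36 in TG hearts. The highest and the lowest hearts of both genotypes interleave. The difference was 0.25 log2 units (95% interval -0.31 to 0.82, limma adjusted p = 0.9999), so the interval does not reach the difference seen for Gys2.

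Pygm, the phosphorylase of skeletal and heart muscle, read 12.07, 10.78 and 11.31 in WT and 12.12, 11.08 and 11.70 in TG hearts. The spread within a genotype was wider than the gap between genotypes. The difference was 0.25 (95% interval -0.56 to 1.06, limma adjusted p = 0.9999). The match of its probe, at chr19:6397893-6398064 (plus strand), covers 172 bases of mm8 where that of Gys1 covers 60, so it is split in the genome.

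Pygb, the phosphorylase named after brain, has 2 probes, and they agreed. The brighter one, at chr2:150522246-150522305 (plus strand), read 13.37, 12.10 and 12.28 in WT and 13.47, 12.43 and 13.12 in TG hearts, a difference of 0.42 (95% interval -0.42 to 1.27, limma adjusted p = 0.9999). The other, at chr2:150521115-150521841, read 11.79, 10.25 and 10.55 in WT and 12.11, 10.59 and 11.57 in TG hearts, a difference of 0.56 (95% interval -0.50 to 1.62). WT replicate 1 and TG replicate 1 were the 2 brightest hearts for both Pygb probes and for Pygm.

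The enzymes that every isoform shares did not pass the test either. Gbe1, the branching enzyme, measured at chr16:70452275-70452334 (plus strand), read 12.45, 13.23 and 12.79 in WT and 12.54, 12.99 and 12.74 in TG hearts, a difference of -0.07 (95% interval -0.57 to 0.44, limma adjusted p = 0.9999). Ugp2, which makes UDP-glucose, was measured by a probe whose match runs over 5627 bases, chr11:21223265-21228891 (minus strand). It read 12.00, 11.81 and 12.30 in WT and 12.33, 11.96 and 11.97 in TG hearts, a difference of 0.05 (95% interval -0.37 to 0.47, limma adjusted p = 0.9999). The other Ugp2 probe, at chr11:21221281-21221340, gave 0.09 (95% interval -0.39 to 0.57).

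**Figure D2:**
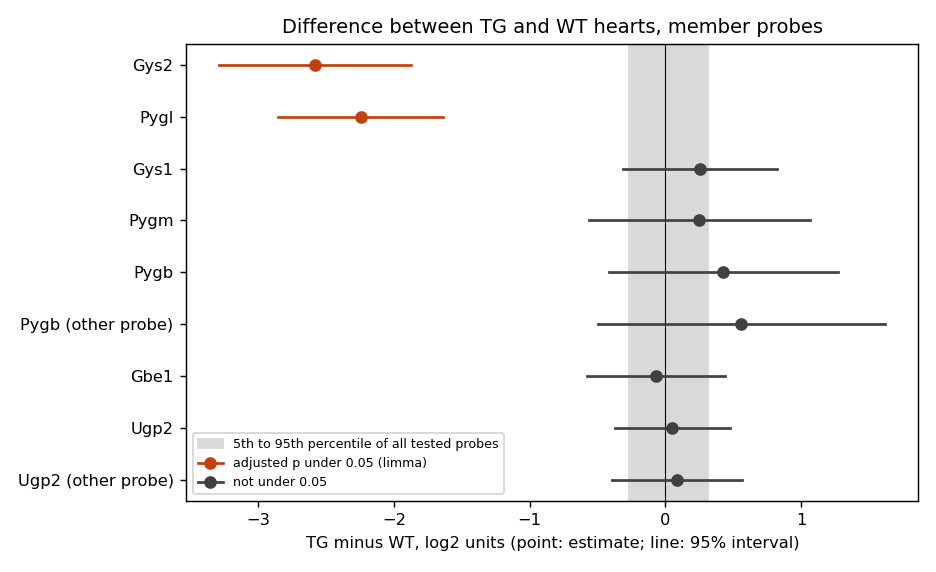
Difference of TG minus WT hearts in log2 units (x axis) for the 9 tested member probes (y axis), with the 95% interval of limma as a line. The intervals of Gys2 and Pygl end at -1.88 and -1.64, and those of the other 7 probes include 0, while the grey band runs from -0.27 to 0.31 for all tested probes.

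For the members that were not called, the direction depended on which arrays were set against each other. Between arrays of extended range the difference was -0.28 for Gys1, -0.68 for Pygm and -0.60 for Pygb, and between single-scan arrays it was 0.71, 1.08 and 1.28. For Gbe1 the order was the opposite, 0.41 and -0.47. With scan mode as a block the differences were 0.22 for Gys1, 0.20 for Pygm, 0.34 for Pygb, -0.03 for Gbe1 and 0.12 for Ugp2, each with a limma adjusted p of 0.9999. The part of the scan mode in the spread of these genes was not tested.

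Within the same heart, the liver isoforms were lower relative to the muscle and brain isoforms in TG hearts. Log2 signals were subtracted within a heart and set to a WT mean of 0. Gys2 minus Gys1 stood at -0.52, 0.25 and 0.27 in WT and at -2.66, -2.06 and -3.79 in TG hearts, a difference of -2.84. Every TG heart lay below every WT heart, with a gap wider than the range of the WT hearts. Pygl minus Pygm was -0.48, 0.58 and -0.10 in WT and -2.62, -1.67 and -3.19 in TG hearts, a difference of -2.50. Pygl minus Pygb was -0.59, 0.46 and 0.13 in WT and -2.78, -1.82 and -3.41 in TG hearts, a difference of -2.67. For the mean of Gys2 and Pygl against the mean of Gys1, Pygm and Pygb, the difference was -2.72, a 6.60-fold shift. With the background-subtracted processed signal, Gys2 minus Gys1 differed by -3.99 and this combined ratio by -3.37. No TG heart reached a WT heart in any of the 4 ratios. Two-sided exact permutation tests gave p = 0.1 for each ratio, also after Benjamini-Hochberg adjustment over the 4, and p = 0.1 is the smallest they can give with 3 hearts per group. The ratios show unequal change, and not that any isoform stayed the same.

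**Figure D3:**
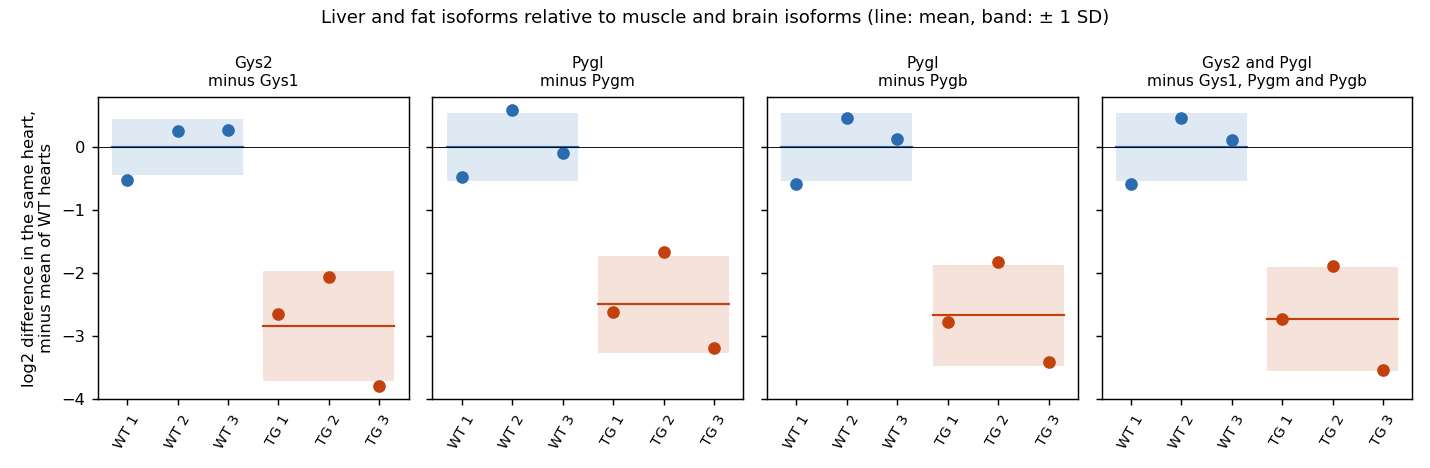
Difference of log2 signals in the same heart, minus the mean of the WT hearts (y axis), for the 4 pairs of liver and fat against muscle and brain isoforms (panels) in each heart (x axis); lines are group means and bands ± 1 SD. The TG hearts lie between -1.67 and -3.79 and the WT hearts between -0.59 and 0.58.

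The rest of the glycogen machinery did not follow Gys2 and Pygl. Of 41 other glycogen genes, all on the array, 38 were tested. None was called in either direction by limma after adjustment or by SAM, 0 were lower and 1 was higher at an unadjusted p under 0.05, and their median difference was 0.06 log2 units, in a range from -0.24 to 0.47. The 1 gene was Stbd1, which binds glycogen and links it to lysosomes, at 8.43 ± 0.06 in WT and 8.77 ± 0.13 in TG hearts (SD, n = 3 each). Its difference was 0.34 (limma adjusted p = 0.9999), and all its TG hearts lay above its WT hearts.

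By role, the values were as close to 0 as those of most probes. Of the 4 other genes of the primer and of synthesis, the differences lay between -0.09 and 0.09. Gaa, the lysosomal glucosidase, had a difference of 0.22. Among the 5 subunits of phosphorylase kinase, which switches phosphorylase on, the largest differences were 0.16 for Phkb and 0.11 for Phka2. Of protein phosphatase 1 and the subunits that bring it to glycogen, 9 of 10 genes were tested, and the largest differences were -0.24 for Ppp1r3b, the subunit best known from liver, and -0.20 for Ppp1r3d. Of the kinases that act on glycogen synthase, 8 of 9 were tested, and the largest differences were 0.30 for Gsk3b and -0.24 for Prkag2, a subunit of the AMP-activated kinase. Laforin (Epm2a) and malin (Nhlrc1), the pair lost in Lafora disease, had differences of 0.14 and 0.05. In the supply and release of glucose phosphate, 7 of 8 genes were tested, and G6pc3 had a difference of 0.29. All these had a limma adjusted p of 0.9999.

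**Figure D4:**
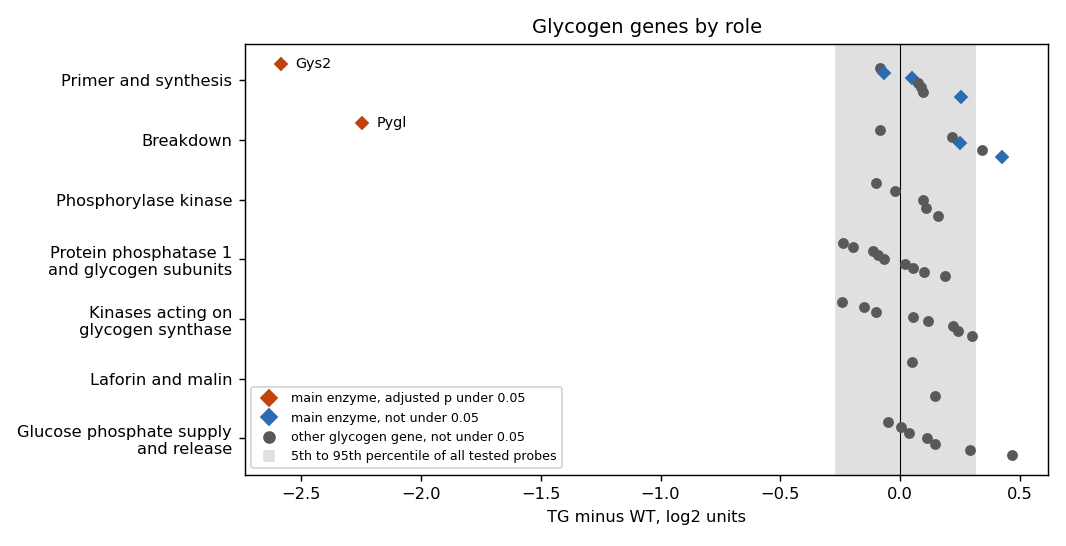
Difference of TG minus WT hearts in log2 units (x axis) for the 45 tested glycogen genes by role (y axis), diamonds for the 7 enzymes followed here and circles for the others. Gys2 (-2.58) and Pygl (-2.25) stand apart, and the others lie between -0.24 and 0.47.

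Most markers of fat cells had a lower mean in TG hearts, as Gys2 and Pygl did. Of 14 markers of white and general fat cells, 13 were tested and 12 had a lower mean in TG hearts. Among those 12, Slc2a4 and Cd36 differed by only -0.08 and -0.02. Of all tested probes, 41.84% had a lower mean in TG hearts. Adipoq (the hormone adiponectin), Plin1 and Cidec (coats of the fat droplet) and Gpd1 were called lower by limma, and 10 of the 13 had all TG hearts below all WT hearts (SAM called 7 of the white and general and 4 of the brown list). The median of the list was -0.98. Adipoq differed by -1.93, Plin1 by -2.25 and Cidec by -2.02, with limma adjusted p of 0.0339, 0.0339 and 0.0386. The summed signal of the list was 298306 to 402340 in WT and 215062 to 234787 in TG hearts. Its brightest probes were those of Fabp4 and Lpl, at mean log2 signals of 16.59 and 16.36 in WT hearts. They differed by -0.72 and 0.02 and weigh most in the sum, so it does not stand for the list. Of 10 markers of brown fat cells, all tested, 8 had a lower mean and 1 was called, with a median of -0.68. In 5 of the 10, all TG hearts lay below all WT hearts. The 2 with a higher mean were Ppargc1a (0.49) and Ppara (0.17). Ucp1, the uncoupling protein of brown fat, differed by -3.23 (limma adjusted p = 0.0445) and Cidea by -1.77 (limma adjusted p = 0.0603). The summed signal of the brown list was 227622 to 356750 in WT and 199945 to 256174 in TG hearts. Most of that sum comes from Cox7a1 and Cox8b, at mean log2 signals of 17.32 and 15.78 in WT hearts. They differed by -0.07 and -0.08, so the sum does not stand for the list. Of the white and general list, 5 genes are also made by heart muscle or its vessels, and of the brown list 4. The part of fat cells in the fall of Gys2 and Pygl was not tested. In whole hearts, fewer cells of a type and less RNA per cell cannot be told apart.

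Markers of the other cell types were not called in either direction. Of 11 hepatocyte markers on the array, 4 were above background on no array. Apoa1 was above background on 0 and Alb on 1 of 6 arrays, whereas Ahsg, Tat and Ass1, the 3 tested, were above background on 6 of 6 arrays and had a median of 0.02. The summed signal of all 11 hepatocyte markers on the array, tested or not, was 1583 to 1905 in WT and 1225 to 2216 in TG hearts. Of 12 cardiomyocyte markers, none was called and the median was 0.06, with summed signals of 985749 to 1350590 in WT and 978316 to 1670930 in TG hearts. Of 12 skeletal muscle markers, 7 were tested and none was called, with a median of 0.04 and summed signals of 111812 to 298942 in WT and 144488 to 256259 in TG hearts. Nearly all of that sum comes from 2 myosin probes, Myh4 and Myh8, at mean log2 signals of 16.00 and 16.85 in WT hearts, so it does not stand for the list. Myh4 differed by -0.13, and the 5 markers not tested, Actn3, Pvalb, Tnnt3, Myh1 and Myh2, were above background on 0 to 4 of 6 arrays. All 10 macrophage and granulocyte markers were tested, 9 had a lower mean (against 41.84% of all tested probes) and none was called. Their median was -0.21, with summed signals of 30038 to 49860 in WT and 26047 to 34098 in TG hearts. Most of that sum comes from Lyz2, at a mean log2 signal of 14.94 in WT hearts, so it does not stand for the list. Lyz2 differed by -0.32, and Cd68 and S100a8 by -0.03 and -0.35. Of 8 neuron and glia markers, 3 were above background on no array, and all 4 that were tested had a lower mean, with a median of -0.41 and no call. The summed signal of all 8, tested or not, was 1787 to 1827 in WT and 1173 to 1456 in TG hearts. S100b, which fat cells also make, and Mbp, a myelin protein, differed by -0.89 and -0.66 without being called. SAM called none of the hepatocyte, cardiomyocyte, skeletal muscle, macrophage or neuron markers, and at an unadjusted p under 0.05 limma had only S100b and Mbp of them.

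**Figure D5:**
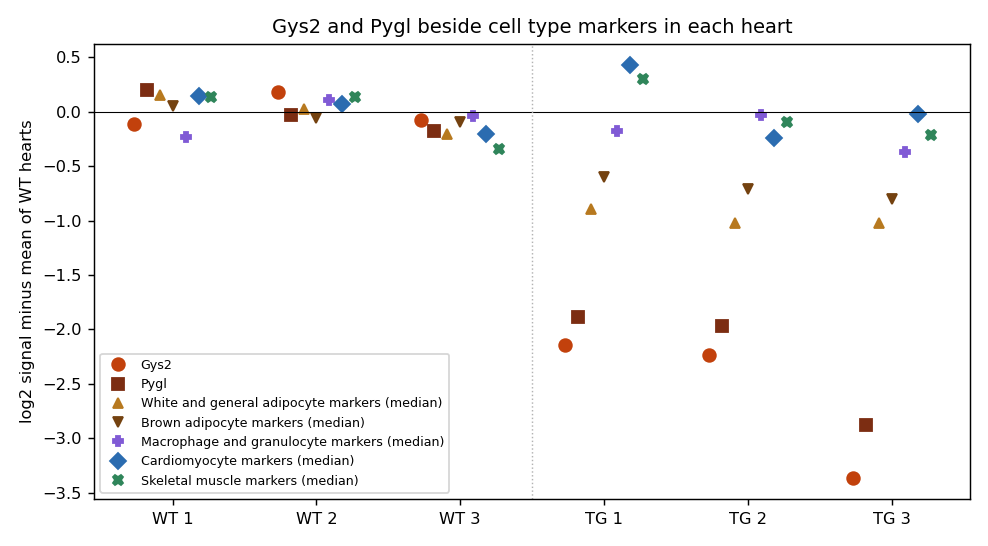
Log2 signal minus the mean of the WT hearts (y axis) of Gys2, Pygl and the medians of 5 marker lists in each heart (x axis). In TG hearts, the median of white fat markers lies at -0.89 to -1.02 and that of brown fat markers at -0.60 to -0.81, above Gys2 and Pygl, while that of cardiomyocyte markers lies at -0.25 to 0.43.

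The genes most like each enzyme were found by Pearson r over the 6 hearts among the tested probes, as a description. Because Gys2 and Pygl part the genotypes, any gene with the same gap scores high with them. For Gys2 they were Acsm3, Ntrk2, Pygl, Prkar2b and Myo1g, each with r = 0.99. For Pygl they were Prkar2b (a regulatory subunit of protein kinase A that is abundant in fat cells), Nrg4, Ntrk2, Angptl8 and Gys2, with r from 0.991 to 0.999. Prkar2b differed by -2.54 and Nrg4 and Angptl8, both made by fat cells, by -1.11 and -0.82. Gys2 and Pygl had r = 0.99 with each other, and 0.90 once each group's mean was taken out.

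The muscle and brain isoforms varied together from heart to heart, whatever the genotype. Pygm and Pygb had r = 0.96, Gys1 and Pygb 0.92, and Pygm and Gbe1 -0.97, over the same 6 arrays, which also share scan modes and slides. Most like Pygm were Ttn (the giant sarcomere protein titin), Ccnd2 and Ak1. Most like Pygb were Brd7, Smarce1 and Atp6ap1, and most like Gys1 Clstn1, Fam214b and a probe that carries no gene symbol. Gbe1 was most like Gsdme, Ap1b1 and Dtnb. Ugp2 was most like Hspb1, Ppp1r3c (a subunit that brings the phosphatase to glycogen) and Dhx30, with r from 0.97 to 0.98.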

How the data were processed

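Cy3-labelled RNA of 6 hearts was hybridized to Agilent arrays, and the authors deposited fluorescence intensity values per spot (Agilent Feature Extraction 9.5.1.1, per the file headers) without normalization between arrays. The authors also deposited a table of log2 values, which they normalized by LOWESS against a median profile, averaged over replicate probes and filtered by the highest medians; it served as an alternative. Probe positions are those of mm8, as deposited.

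Here the log2 median signal without background subtraction was used, in 43379 spots other than controls. Outlier-marked spots were left out. Loess (span 0.3, 4 iterations) then removed from every array the trend of its deviation from the median profile of the 6 arrays. Spots were averaged per probe. The 20000 probes of highest median were tested with lmFit and eBayes of limma 3.58.1, run under R 4.3.3 beside the package data.table (version 1.17.8). The p-values were adjusted over all 20000 after Benjamini and Hochberg, and the threshold was 0.05. limma was tested on simulated data first. SAM was run over all assignments of the hearts. Gene symbols came from a RefSeq table (18373 of the 20000 probes matched; the others kept the name in the files).

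Replicates were numbered in the order of the labels, and these replicate numbers pair no hearts. Named were all 7 enzymes with every probe, the called genes and the 2 largest differences of each glycogen role, the defining markers of each list, and the genes most like each enzyme (5 for Gys2 and Pygl, 3 for the others). Some genes that this rule names are not reported here. A gene's value is that of its brightest probe. The members and lists were chosen with earlier results of these data known. Alternatives changed the signal, background correction, normalization, probe filter, eBayes settings, test, threshold, blocks and hearts. Upstream sequences are RefSeq's, of which 6 of the 7 genes have an entry. Precision is limited by the number of arrays and by signal over background.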

Additional observations from a re-analysis of the deposited data

How the results depend on the processing

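Gys2 and Pygl remained lower in TG hearts under all 23 alternatives run for each, from -3.74 to -2.10 and from -2.42 to -1.93 log2 units, but 14 alternatives for Gys2 and 13 for Pygl left the adjusted p above 0.05, up to limma adjusted p of 0.657 and 0.638 when all 41174 probes were tested. Gys2 was no longer called with the processed signal at the 75th percentile (-3.74, adjusted p = 0.05002). Neither was called with the median signal at the 75th percentile (-2.62 for Gys2, -2.12 for Pygl), with scan mode as a block (-2.44, -2.21), in the authors' own table (-2.22, -2.20) or, in 2 alternatives chosen after seeing the data, with loess on the profile itself (-2.53, -2.22) or with the shared slide as a block (-2.58, -2.25). Neither was called over all probes or over probes above background on 3 or more arrays, where the differences are the reported -2.58 and -2.25. There more probes were tested and the SE also rose, over all probes from 0.31 to 0.34 for Gys2 and from 0.27 to 0.29 for Pygl. The cause of the lost calls was not tested in any setting. Without 1 heart, Gys2 ranged from -2.80 to -2.19 and Pygl from -2.42 to -1.93. The count of members called lower was therefore 1 with the processed signal, 0 in the other settings named here and 0 without any 1 heart, against the 2 reported.

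Over all tested probes, 19 were called lower as reported and also without WT replicate 2, 22 with the processed signal, 33 with quantile normalization, 31 with the trend setting, 17 with normexp and quantile normalization, 8 without TG replicate 2, 2 with loess on the profile, and 0 with 75th percentile scaling, all probes, probes above background on at least 3 arrays, scan mode or the shared slide as a block, the authors' own table, or without WT replicate 1, WT replicate 3, TG replicate 1 or TG replicate 3. Pygm turned to -0.055 without WT replicate 2 and ranged from -0.055 to 0.59 without 1 heart. Gbe1 turned to 0.11 at the 75th percentile, to 0.14 without WT replicate 2 and to 0.04 without TG replicate 1, in a range from -0.25 to 0.14 without 1 heart. Ugp2 turned to -0.06 without WT replicate 2 and to -0.071 without TG replicate 1, in a range from -0.071 to 0.18. None of these was called in any setting run. Gys1 ranged from 0.081 to 0.46 and Pygb from 0.18 to 0.82 without 1 heart, with the ends at WT replicate 3 and TG replicate 2 for Gys1 and at WT replicates 2 and 1 for Pygb. The 4 isoform ratios kept their direction in 17 of 17 settings, from -3.99 to -2.32 for Gys2 minus Gys1, -2.91 to -2.15 for Pygl minus Pygm, -3.10 to -2.30 for Pygl minus Pygb and -3.37 to -2.31 for the combined ratio. The median of the other glycogen genes moved to 0.15 at the 75th percentile and ranged from 0.019 to 0.067 without 1 heart. Slides as a random block could not be fitted, since 1 slide alone carried more than 1 array. No paired analysis was possible because titles and slides link only 1 WT heart to 1 TG heart, WT replicate 2 and TG replicate 1, by the number of the slide they shared.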
